A study of Mus musculus with 8 samples.

Results

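The collagen genes Col1a1, Col1a2, Col3a1, Col5a1, Col5a2, Col4a1, Col4a2, Col6a1 and Col6a2 were followed in TM3 cells exposed to bisphenol A (BPA) and in normal TM3 cells. They were taken by name, with earlier results of these data known, and are 9 of the 12404 genes of the count table. All 9 passed the filter on low counts. They carried 31 of the 3331 peaks in the authors' deposited table of N6-methyladenosine (m6A) peaks, in 8 of the 9 genes.

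TM3 cells are an established mouse cell line of Leydig type, and Leydig cells are the steroid-secreting cells between the seminiferous tubules. BPA is a plastics monomer with weak estrogen-like activity. The RNA-seq libraries, which also served as input, comprised 2 of BPA-exposed TM3 cells and 2 of normal TM3 cells, and the MeRIP libraries, made by pulling down m6A-bearing RNA fragments with an antibody, comprised the same numbers. The labels give neither dose nor exposure time, nor any treatment of the normal cells, and they do not say whether replicates came from separate cultures, so the spread behind each p-value may be technical.

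Collagens are triple helices of alpha chains. The fibrillar types I, III and V assemble into the banded fibrils of connective tissue, type IV forms the sheet-like network of basement membranes, and type VI forms the beaded filaments that link cells to the surrounding matrix. In the testis, basement membranes surround the tubules, and fibrillar collagens lie in the tubule wall and interstitium. Newly made chains are hydroxylated, folded and exported by dedicated enzymes and chaperones, and fibrils are trimmed and crosslinked outside the cell.

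The libraries held 8813870 and 6305121 reads on genes in BPA cells, and 10455643 and 7517482 in normal cells. The 2 BPA libraries stood apart in that the median gene had only 15 and 2 reads there, against 233 and 150 in the normal libraries. The collagens were far above that level, with 474 to 40617 reads per library. Of the 9 Leydig cell markers listed, 1 was among the genes of the table, the lipoprotein receptor Scarb1. It had 1677 and 331 reads in BPA cells and 458 and 150 in normal cells. As reads scaled to a fixed library total (CPM), it stood at 195 and 61.9 in BPA cells and 39.7 and 19.2 in normal cells. Both BPA libraries were above both normal libraries, an order that held for 12.8% of all genes tested (edgeR's quasi-likelihood test for Scarb1, adjusted p = 0.382). The steroidogenic markers such as Star and Cyp11a1 were not analysed here. The fibroblast and stromal list had 4 of 6 genes in the table. It summed to 512 and 777 CPM in BPA cells and 592 and 659 in normal cells, so the groups overlapped. Within it, Pdgfra, its most abundant gene, stood at 299.8 and 463 CPM in BPA cells and 231 and 380 CPM in normal cells, and Dcn at 212 and 162 CPM in BPA cells and 343 and 269 CPM in normal cells. Pdgfrb was at 0 reads in both BPA libraries and at 208 and 79 in normal libraries, while Lum had 3 and 811 reads in BPA cells and 0 in both normal libraries. The smooth muscle list had 2 of 6 genes and summed to 58.2 and 237 CPM in BPA cells and 6.93 and 45.1 in normal cells, nearly all from Acta2. The macrophage list had 2 of 5 genes, at 21.0 and 81.5 CPM in BPA cells and 0 and 19.4 in normal cells. The Sertoli list had 5 of 8 genes, at 280 and 135 CPM in BPA cells and 188 and 312 in normal cells. Wt1, its most abundant gene, overlapped, at 227 and 96.4 CPM in BPA cells and 135 and 296 in normal cells. Clu was higher in both BPA libraries, at 38.9 and 38.3 CPM against 19.2 and 0.128 in normal cells. Inhbb was at 0 reads in both BPA libraries and at 248 and 125 in normal libraries (edgeR's quasi-likelihood test, unadjusted p = 0.0477, adjusted p = 0.372). Dhh had 135 reads in normal replicate 1 alone, and Rhox5 125 reads in BPA replicate 1 alone. The endothelial list had 1 of 5 genes, at 0 CPM in both BPA libraries and at most 12.4 in normal cells, and the germ cell list had 0 of 6 genes with a value here. Whether these markers have a part in the collagen values was not tested.

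Across the group, most collagen transcripts had lower values in BPA cells, by amounts that the replicates did not separate from no change. The fold change, BPA over normal on the log2 scale, was below 0 in 8 of 9 genes. It was below 0 in 50.5% of the 8645 genes tested and in 31.5% of the 1756 abundant genes (mean of 1000 reads or more). The collagens' median was -0.39, against -0.02 over all genes tested and 0.34 over the abundant ones. None of the 9 passed an adjusted p of 0.05 in edgeR's quasi-likelihood test, and none reached an unadjusted p of 0.05. The standard errors were 0.31 to 0.72 on the log2 scale, and a missed threshold does not show that values did not differ. Over all genes tested, edgeR called 0 (0%), and 9.64% had an unadjusted p under 0.05, 7.23% lower and 2.41% higher in BPA cells. DESeq2 called 264 genes (3.05%), none of them among the 9. With BPA replicate 1 left out, the collagens' median was -0.52, against -2.87 over the 11088 genes tested in that fit. With BPA replicate 2 left out it was -0.25, against -1.13 over 11129 genes. The filter let other genes into these fits, so their medians over all genes cannot be set beside -0.02. For genes shared with the main fit, the values moved by a median of 0.03 and -0.03. Without normal replicate 1 the collagens' median was -0.23, and without normal replicate 2 it was -0.38. The medians over the genes of those fits, again other sets, were -0.04 and -0.02.

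In CPM, scaled with TMM (a per-library factor that centres most genes), both BPA libraries lay below both normal libraries for 6 of 9 genes, Col1a2, Col4a1, Col5a1, Col5a2, Col6a1 and Col6a2. The same held for 27.2% of all genes tested and for 9.91% of the abundant ones. The opposite order, with the BPA pair on top, was seen in 0 of 9. It held for 12.8% of all genes tested and for 28.4% of the abundant ones. The groups overlapped for Col1a1, Col3a1 and Col4a2. With DESeq2 size factors the BPA pair was on top in 1 of 9. The count with the BPA pair below also depended on the scaling. It was 3 of 9 with DESeq2 size factors (25.2% of all genes), and 8 of 9 with library totals (31.1%) or with TMM over the abundant genes alone (31.6%). Leaving out 1 library at a time can only keep or raise this count, so it is no check of it. It gave 6 to 8 of 9, beside 35.8% to 49.3% of all genes and 17.8% to 29.2% of the abundant ones.

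**Figure D1:**
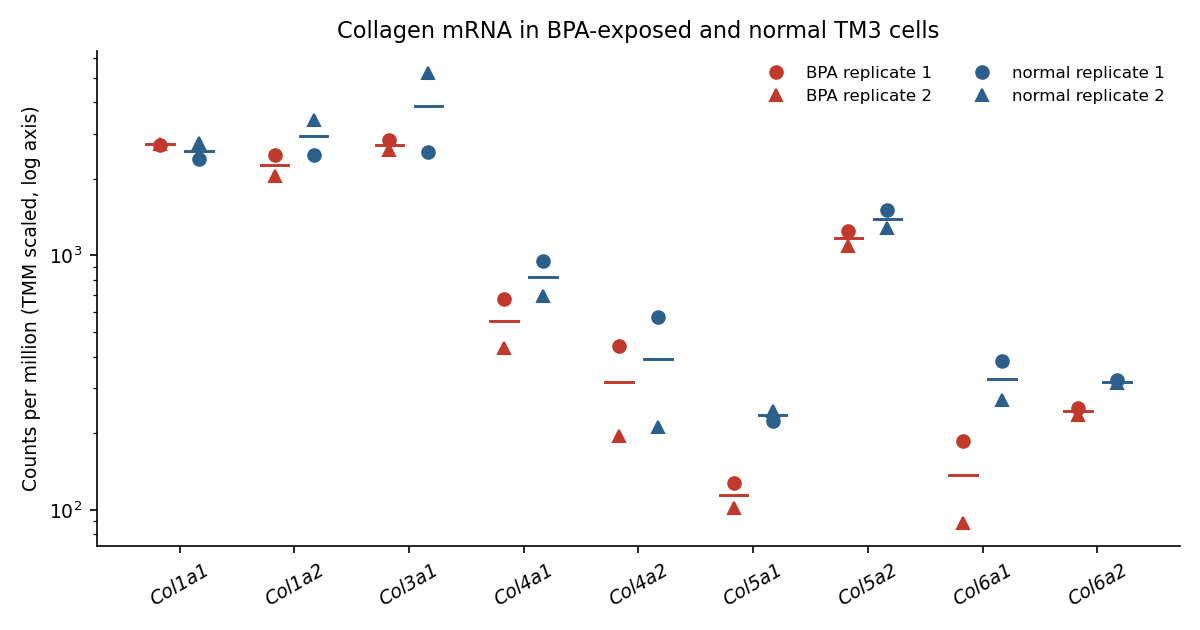
CPM (TMM scaled, log axis) of the 9 collagen genes in the 2 BPA libraries (red, left) and the 2 normal libraries (blue, right); short bars are group means. Both BPA libraries lie below both normal libraries for 6 of 9 genes, and the groups overlap for Col1a1, Col3a1 and Col4a2.

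Together the 9 genes took 1.07% and 0.812% of all reads in BPA cells, against 1.26% and 1.49% in normal cells. Exact 95% binomial intervals were 1.06 to 1.08% and 0.805 to 0.819% in BPA cells, and 1.25 to 1.27% and 1.48 to 1.50% in normal cells, and cover counting error only. Both BPA libraries were below both normal libraries in this share. Col3a1 alone took 0.278% and 0.221% of reads in BPA cells and 0.282% and 0.540% in normal cells. The joint share in normal replicate 2 thus rests in large part on this gene. The share of mitochondrially encoded genes was higher in both BPA libraries, at 3.61% and 4.44% in BPA cells and 3.33% and 3.12% in normal cells. In bulk RNA, fewer cells with collagen transcripts and less collagen RNA per cell cannot be told apart.

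Among the fibrillar collagens, Col1a1, which encodes the major chain of type I collagen, had 23405 and 14728 reads in BPA cells and 27773 and 21542 in normal cells. In CPM it stood at 2720 and 2753 in BPA cells and 2407 and 2763 in normal cells. These values overlapped, and its log2 fold change was 0.08 ± 0.31 (SE; edgeR's quasi-likelihood test, adjusted p = 0.940). It was the only member with a fold change above 0, and its value was -0.19 when TMM was computed over the abundant genes alone.

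Col1a2, which encodes the partner chain of the type I heterotrimer, stood at 2473 and 2058 CPM in BPA cells and 2481 and 3398 CPM in normal cells. The higher BPA library and the lower normal library were almost equal. The fitted log2 fold change was -0.37 ± 0.32 (SE; edgeR's quasi-likelihood test, adjusted p = 0.686). The Col1a2 start site window of RefSeq (GRCm38.p6, chr6:4505368-4505667, plus strand, 250 bases before to 50 after the start) is shown because Col1a2 transcription is classically described through a CCAAT element upstream of its start. Capitals mark CCAAT and its reverse complement ATTGG, which begin at positions -109 and 1 relative to the start annotated for this window. Whether either is the described element was not analysed here.

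Col1a2: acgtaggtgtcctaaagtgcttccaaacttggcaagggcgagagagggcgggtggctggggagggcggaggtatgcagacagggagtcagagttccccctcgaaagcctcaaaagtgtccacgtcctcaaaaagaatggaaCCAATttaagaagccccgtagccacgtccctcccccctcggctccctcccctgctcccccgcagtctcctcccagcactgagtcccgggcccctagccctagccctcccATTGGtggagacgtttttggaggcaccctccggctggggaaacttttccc

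CCAAT on either strand occurred in 37.4% of all 32851 mouse start site windows of this length, and GGGCGG on either strand in 35.7%. GGGCGG or its complement was found in the Col1a2 window at 2 places, and TATAAA, found in 13.6% of all windows, was not among its letters. Of the 9 genes, 7 had a window in the table used, and Col1a1 and Col5a2 did not. CCAAT was found in the windows of Col1a2, Col4a1 and Col4a2, and TATAAA in the window of Col3a1. These matches describe letters only.

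Col3a1, the single chain of type III collagen, which is co-polymerized with type I in extensible tissues, stood at 2843 and 2610 CPM in BPA cells and 2554 and 5209 CPM in normal cells. Normal replicate 2 was far above the other 3. This gave a log2 fold change of -0.51 ± 0.35 (SE; edgeR's quasi-likelihood test, adjusted p = 0.580), and it was 0.12 without normal replicate 2.

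Type V collagen is a minor fibrillar component that sets fibril diameter. Its chain gene Col5a1 had 1096 and 545 reads in BPA cells and 2588 and 1914 in normal cells, which gave 127 and 102 CPM in BPA cells and 224 and 245 CPM in normal cells. The groups did not overlap, and both BPA libraries were below each normal library. It had a log2 fold change of -1.01 ± 0.72 (SE; edgeR's quasi-likelihood test, adjusted p = 0.592). Col5a2 stood at 1247 and 1091 CPM in BPA cells and 1507 and 1283 CPM in normal cells, with no overlap. Its log2 fold change was -0.25 ± 0.37 (SE; edgeR's quasi-likelihood test, adjusted p = 0.839).

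Among the basement membrane chains, Col4a1 stood at 675 and 431 CPM in BPA cells and 955 and 691 CPM in normal cells. Both BPA libraries were below both normal libraries. Its log2 fold change was -0.56 ± 0.46 (SE; edgeR's quasi-likelihood test, adjusted p = 0.661). Col4a2, whose product joins that of Col4a1 in the common type IV heterotrimer, stood at 442 and 196 CPM in BPA cells and 571 and 212 CPM in normal cells. In each group, replicate 1 was far above replicate 2, and the groups overlapped. The fitted log2 fold change was -0.28 ± 0.63 (SE; edgeR's quasi-likelihood test, adjusted p = 0.895), and it was 0.19 without BPA replicate 2 and 0.78 without normal replicate 1.

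Col4a1 and Col4a2 lie head to head and are transcribed apart from a shared start region. The Col4a2 window (RefSeq, GRCm38.p6, chr8:11312555-11312854, plus strand) is shown to make this arrangement visible. Capitals mark the 78 bases, chr8:11312777-11312854, that also lie in the Col4a1 window on the minus strand. No source used here says whether the counting used strand, so reads near the start cannot be assigned to one gene with certainty.

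Col4a2: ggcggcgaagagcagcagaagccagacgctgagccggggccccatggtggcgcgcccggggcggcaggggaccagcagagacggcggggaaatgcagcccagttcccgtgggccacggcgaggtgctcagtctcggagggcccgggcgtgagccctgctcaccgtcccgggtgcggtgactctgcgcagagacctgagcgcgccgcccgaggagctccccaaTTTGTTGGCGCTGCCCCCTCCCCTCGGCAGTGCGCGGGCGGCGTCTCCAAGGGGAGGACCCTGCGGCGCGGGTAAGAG

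This window held GGGCGG or its complement at 3 places and CCAAT or its complement at 1 place, and its GC content was 73.7%, against a median of 52.7% over all windows. The windows ranged from 37.7% GC for Col3a1 to 75% for Col5a1.

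Of the beaded filament chains, Col6a1 had the most negative fold change of the 9 genes, also without a call. It had 1600 and 474 reads in BPA cells and 4429 and 2104 in normal cells, or 186 and 88.6 CPM in BPA cells and 384 and 270 CPM in normal cells. Both BPA libraries were below both normal libraries. This gave a log2 fold change of -1.21 ± 0.67 (SE; edgeR's quasi-likelihood test, adjusted p = 0.425). Col6a2, which encodes a partner chain in the type VI monomer, stood at 251 and 237 CPM in BPA cells and 324 and 314 CPM in normal cells. The replicates were close and the groups did not overlap, and the log2 fold change was -0.39 ± 0.58 (SE; edgeR's quasi-likelihood test, adjusted p = 0.845).

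**Figure D2:**
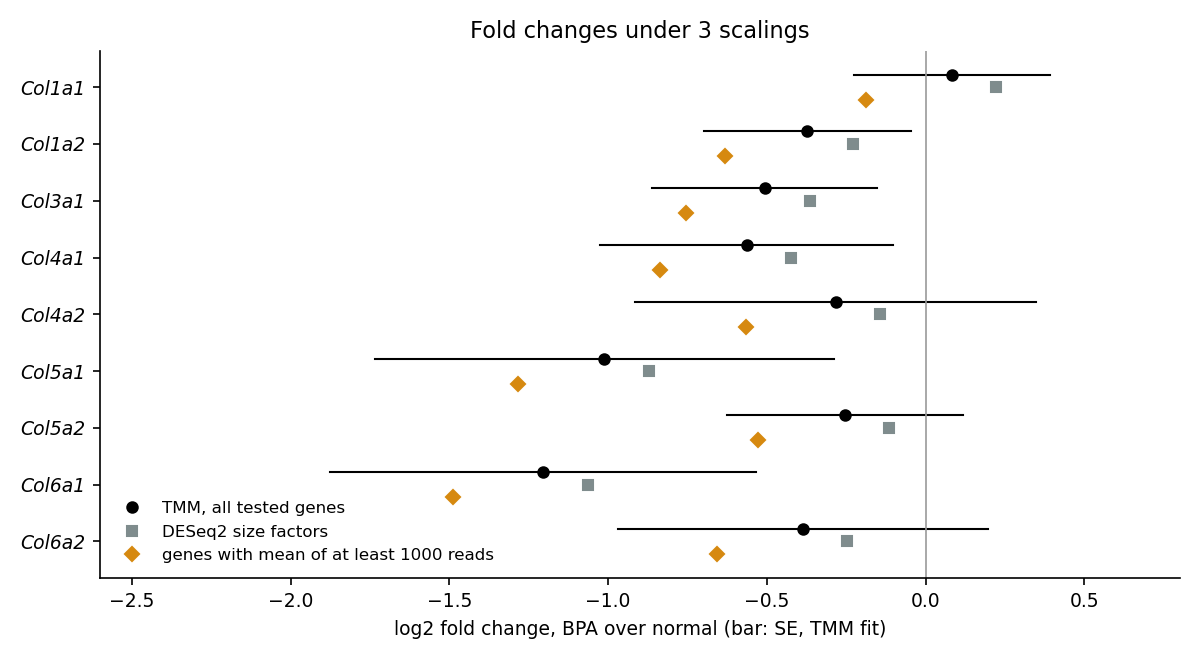
log2 fold change, BPA over normal, of each collagen gene in the TMM fit (circles, with the SE), with DESeq2 size factors (squares) and with TMM over the abundant genes, with a mean of 1000 reads or more (diamonds). Col1a1 is above 0 in the first 2 and below 0 in the third (-0.19), and the other 8 genes are below 0 in all 3.

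The scaling sets the level against which these values are read. DESeq2 size factors moved the values by a median of 0.14 on the log2 scale, and TMM over the abundant genes alone moved them by -0.27. With the abundant genes alone, all 9 values were below 0 and their median was -0.66, against 0.07 for the genes in that fit. The lowest adjusted p of any member over all alternatives was 0.320.

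The spread between replicates differed among the 9 genes. The median gap between replicates, on the log2 CPM scale, was 0.26 in BPA cells and 0.45 in normal cells for the 9 collagens, against 1.68 in BPA cells and 0.84 in normal cells over all genes tested. Among the abundant genes it was 0.80 in BPA cells and 0.48 in normal cells. Col4a2 and Col6a1 lay above that level in both groups, with gaps of 1.17 and 1.07 in BPA cells and 1.43 and 0.51 in normal cells.

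Ratios of chains within a library do not depend on the scaling. The ratio of Col1a1 to Col1a2 reads was 1.10 and 1.34 in BPA cells and 0.970 and 0.813 in normal cells, so both BPA libraries were above both normal libraries. The ratio of Col3a1 to Col1a1 was 1.05 and 0.948 in BPA cells and 1.06 and 1.89 in normal cells, with both BPA libraries below. The ratio of Col5a1 to Col5a2 was 0.102 and 0.0933 in BPA cells and 0.149 and 0.191 in normal cells, with no overlap.

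Within type VI, the ratio of Col6a1 to Col6a2 was 0.742 and 0.374 in BPA cells and 1.18 and 0.860 in normal cells, again lower in both BPA libraries. Within type IV, the ratio of Col4a2 to Col4a1 was 0.654 and 0.454 in BPA cells and 0.598 and 0.306 in normal cells, and the groups overlapped. The differences of the mean log2 ratio, BPA minus normal, were 0.45 for type I, -0.51 for Col3a1 over Col1a1, -0.79 for type V, -0.94 for type VI and 0.35 for type IV. In each of the 4 ratios without overlap, the two-sided exact permutation p was 0.333, the smallest that 2 against 2 libraries allow, and 0.417 after Benjamini-Hochberg adjustment over the 5 ratios. Type IV gave an exact permutation p of 0.667. The share of other gene pairs without overlap was not computed, so the count of 4 has no background beside it. Col1a1 is part of 2 of these ratios. Col3a1 over Col1a1 was separated only narrowly, by 1.05 in BPA replicate 1 against 1.06 in normal replicate 1.

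**Figure D3:**
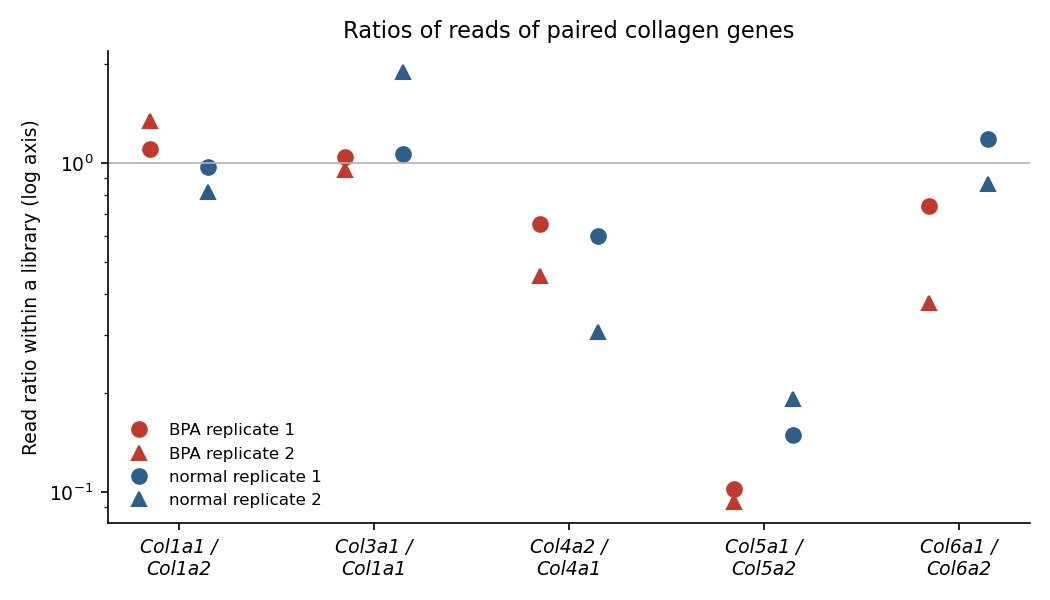
Ratio of the reads of 2 collagen genes within each library (log axis), with BPA libraries (red) left of normal libraries (blue). BPA libraries lie above normal for Col1a1 over Col1a2, below for 3 ratios, and overlap normal for Col4a2 over Col4a1.

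The genes nearest to the mean centred log2 CPM profile of the 9 collagens over the 4 libraries, among 1747 abundant candidates, were Ppp1r12a (Euclidean distance 0.120), Psmd1 (0.133), Npc2 (0.153), Fn1 (0.178) and Tnks1bp1 (0.179). Fn1, the gene of the matrix glycoprotein fibronectin, stood at 3612 and 2708 CPM in BPA cells and 4164 and 3723 CPM in normal cells. Of the collagens themselves, Col6a2 was nearest to the mean profile (0.273), and Col4a2 farthest (1.11).

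The 6 lists hold genes that make, export and assemble collagen, other collagens, basement membrane partners, receptors and turnover genes, and TGF-beta control. Each gave 0 edgeR calls, a count fixed by the 0 calls over all 8645 genes tested. Of 27 tested genes for folding, modification and export, 7 had a fold change above 0 and 20 below, with a median of -0.48. Beside this and the lists below, 50.5% of all genes tested and 31.5% of the abundant ones were below 0. Sparc, a collagen-binding matrix protein, had a log2 fold change of -0.16, the endoplasmic reticulum chaperone Hspa5 0.34, the prolyl hydroxylase subunit P4hb -0.06, and the collagen chaperone Serpinh1 -0.44. Mia2, which acts in the export of bulky cargo from the endoplasmic reticulum, had 2452 and 2636 reads in BPA cells and 562 and 541 in normal cells. The groups were far apart, with a log2 fold change of 2.73 ± 0.74 (SE; unadjusted p = 0.00261 and adjusted p = 0.372 in edgeR's quasi-likelihood test), and DESeq2 called it at an adjusted p of 0.0139. P3h3, of the prolyl hydroxylase family, had 0 and 2 reads in BPA cells and 492 and 235 in normal cells (edgeR's quasi-likelihood test, unadjusted p = 0.0498, adjusted p = 0.372).

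Of 15 tested genes for processing, crosslinking and fibril assembly, 5 were above 0 and 10 below, with a median of -0.32. The crosslinking enzyme Lox had a log2 fold change of 0.31, the small proteoglycan Bgn 0.29, the matricellular gene Thbs1 0.79 and Fn1 -0.32. Adamts3, a procollagen peptidase, was at 0 reads in both BPA libraries and at 137 and 76 in normal libraries (edgeR's quasi-likelihood test, unadjusted p = 0.0395, adjusted p = 0.372). Against a floor of 3 reads over the group this is at least 59.7-fold lower, for counting error only. Genes could be at 0 in 1 replicate alone, as Cebpb was in normal cells (0 and 735 reads). The 0 reads therefore do not bound expression, and the SE of the log2 fold change was 4.17.

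Of 9 tested basement membrane partners, 2 were above 0 and 7 below, with a median of -0.70. The 2 above were the laminin chain Lamc1 (log2 fold change 0.44) and the linker Nid1 (0.92), while the laminin chain Lamb1 stood at -0.19 and the perlecan gene Hspg2 at -0.70. The 6 other collagens tested, of 10 in the table, had a median of -0.03, with Col8a1 at -0.02, Col4a5 at -0.04, Col16a1 at -0.52 and Col27a1 at 0.46.

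Receptors and turnover genes were balanced, with 7 above and 7 below 0 and a median of 0.00. Among them the collagen-binding integrin chain Itgb1 had a log2 fold change of 0.21, the metalloproteinase inhibitors Timp3 and Timp2 0.36 and -0.03, and the lysosomal protease Ctsb 0.24. The TGF-beta list was balanced too, with 8 above and 8 below 0. Of its genes, Ccn1 stood at 0.54, Sp1 at 1.07 and Wwtr1 at 1.02. The transcription factor Cebpb had 1371 and 4112 reads in BPA cells and 0 and 735 in normal cells, with a log2 fold change of 3.46 ± 1.08 (SE; edgeR's quasi-likelihood test, unadjusted p = 0.00684, adjusted p = 0.372), and DESeq2 gave it an adjusted p of 0.972.

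The m6A peaks give another reading of the same transcripts. The authors pooled the libraries to 1 value per condition for IP and input, as reads scaled to a fixed total (RPM), so no replicate check is possible. In the authors' deposited table, all 31 collagen peaks had a false discovery rate of at most 0.000269. The highest rate over all 3331 peaks was 0.0147, so a low rate was shared by every listed peak and does not mark the collagens. The log2 fold change of IP over input, BPA against normal, was positive for 22 of 31 peaks and negative for 9, against 68.8% and 31.2% of all 3331 peaks. Its median was 1.74, against 3.33 over all peaks. Col6a1 had no peak in that table. The values exceed the ratio of the RPM columns by a constant 0.777 in the 22 collagen peaks with 10 or more reads per column, so their zero depends on that offset. By the RPM ratio, 21 of 31 were positive, and the third Col3a1 peak (0.56 in the authors' deposited table) was negative (-0.21).

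Input was lower in BPA cells at 24 of 31 peaks (77.4%, against 61.3% of all peaks), and over 4-fold lower at 11 (35.5%, against 47% of all peaks), while it was over 4-fold higher at 2 (6.45%, against 12.5%). IP was over 4-fold lower in BPA cells at 2 (6.45%, against 14.4%) and over 4-fold higher at 1 (3.23%, against 16.7%). Input changed by more than IP at 18 of 31, against 62.5% of all peaks. IP was above input in BPA cells at 17 of 31 (62.5% of all peaks) and in normal cells at 10 of 31 (47.7%). The input columns rest on fewer reads, with 818212 in BPA cells and 1703692 in normal cells behind the scale, against 3908372 in BPA cells and 5402183 in normal cells for IP. RPM over the listed peaks summed to 877723 and 826089 for IP in BPA and normal cells, and to 894159 and 884773 for input. Most of each scale thus lay within these peaks. IP above input is therefore relative among the peaks and does not measure enrichment over all transcripts.

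**Figure D4:**
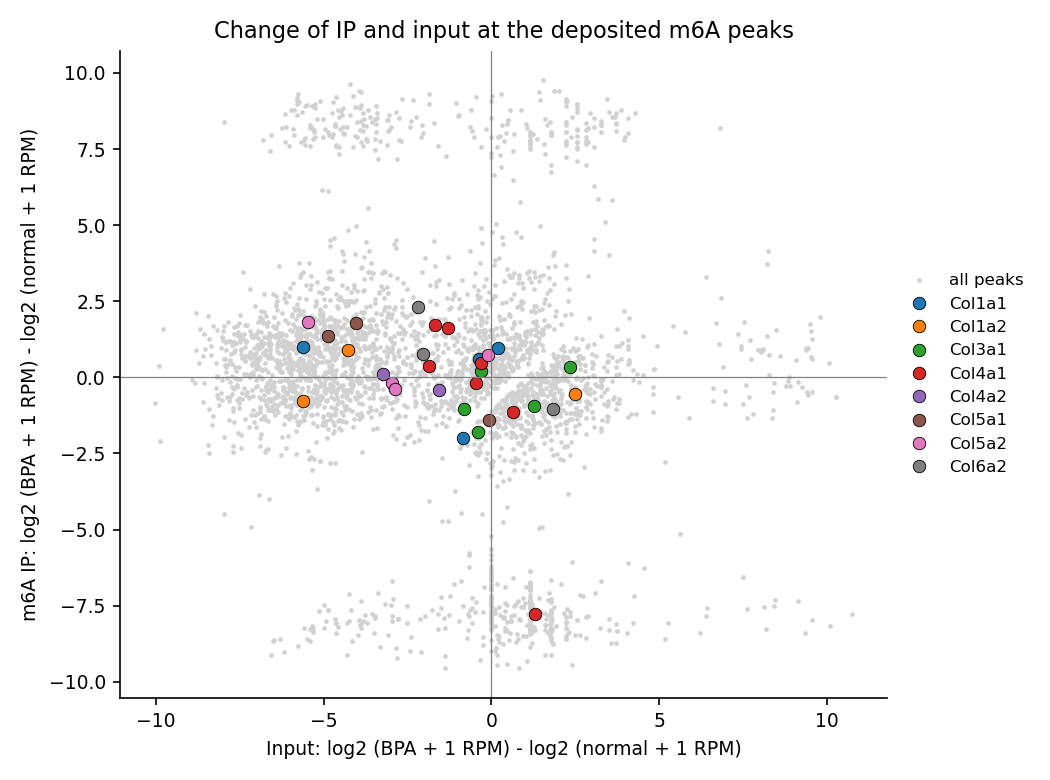
Change of the input (x axis) and of the m6A IP (y axis) between BPA and normal cells at the 31 collagen peaks (coloured by gene) and at all peaks (grey), as log2 differences with 1 RPM added. Input is lower in BPA cells at 24 of 31 collagen peaks (77.4%, against 61.3% of all peaks), and 1 Col4a1 peak lies far below the others in IP.

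Peaks are numbered from 5′ to 3′, with coordinates as deposited, in a build read as GRCm39. The exons and untranslated regions they fall in were not analysed here. Among the 4 Col1a1 peaks, the third (chr11:94841216-94841240) had IP values of 118 RPM in BPA cells and 58.5 in normal cells, and input values of 1.22 RPM (1 read) in BPA cells and 107 in normal cells, with 8.19 as the log2 fold change in the authors' deposited table. The fourth (chr11:94842027-94842051) had 216 RPM of IP in BPA cells and 868 in normal cells, and 642 RPM of input in BPA cells and 1155 in normal cells. At the same gene, then, 1 peak had almost no BPA input and another had a lower IP.

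The 3 Col1a2 peaks showed the widest spread of input. Input was 3.67, 0 and 2191 RPM in BPA cells and 230, 18.2 and 390 RPM in normal cells. IP was 91.9, 98.5 and 486 RPM in BPA cells and 158, 52.8 and 709 RPM in normal cells. The authors' deposited table gives 5.96, 6.93 and -2.26 for these peaks. The third (chr6:4540719-4540743) had input 5.62 times as high in BPA cells as in normal cells (exact 95% interval of the ratio 5.14 to 6.16, counting error only). The gene's reads over its length had a log2 fold change of -0.37, on the TMM scale, which differs from the RPM scale of the peaks.

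The Col3a1 peaks were mixed, with -1.25, -0.62, 0.56, -1.46 and 1.29 in the authors' deposited table. Col3a1 was the gene with the largest share of negative peaks, 3 of 5. All 4 Col5a2 peaks were positive there, at 3.61, 3.45, 1.61 and 8.26. At the last of these (chr1:45414256-45414305), IP was 378 RPM in BPA cells and 106 in normal cells, and input was 7.33 RPM in BPA cells and 367 in normal cells. Col5a1 had 6.77, 7.50 and -0.55 in the authors' deposited table. Its first 2 peaks had 7.33 and 2.44 RPM of input in BPA cells and 136 and 99.8 in normal cells.

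Col4a1 had the most peaks, 7. Of these, 5 were positive in the authors' deposited table, from 1.05 to 4.18, and 2 were negative, 1 of them at -10.59. The most negative (chr8:11270022-11270046) had 1 IP read in BPA cells, or 0.26 RPM, against 274 RPM in normal cells, while its input was 324 RPM in BPA cells and 131 in normal cells. The seventh (chr8:11249648-11249672) had 649 RPM of IP in BPA cells and 196 in normal cells, and 210 RPM of input in BPA cells and 672 in normal cells. Both Col4a2 peaks were positive, at 1.93 and 4.26.

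Of the 3 Col6a2 peaks, the first (chr10:76450222-76450246) was negative, at -2.09 in the authors' deposited table, and the other 2 were positive, at 3.60 and 5.32. The third (chr10:76445097-76445121) had 317 RPM of IP in BPA cells and 62.6 in normal cells, 5.07 times as high (exact 95% interval 4.49 to 5.73, counting error only). It was the only collagen peak with IP over 4-fold higher in BPA cells.

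**Figure D5:**
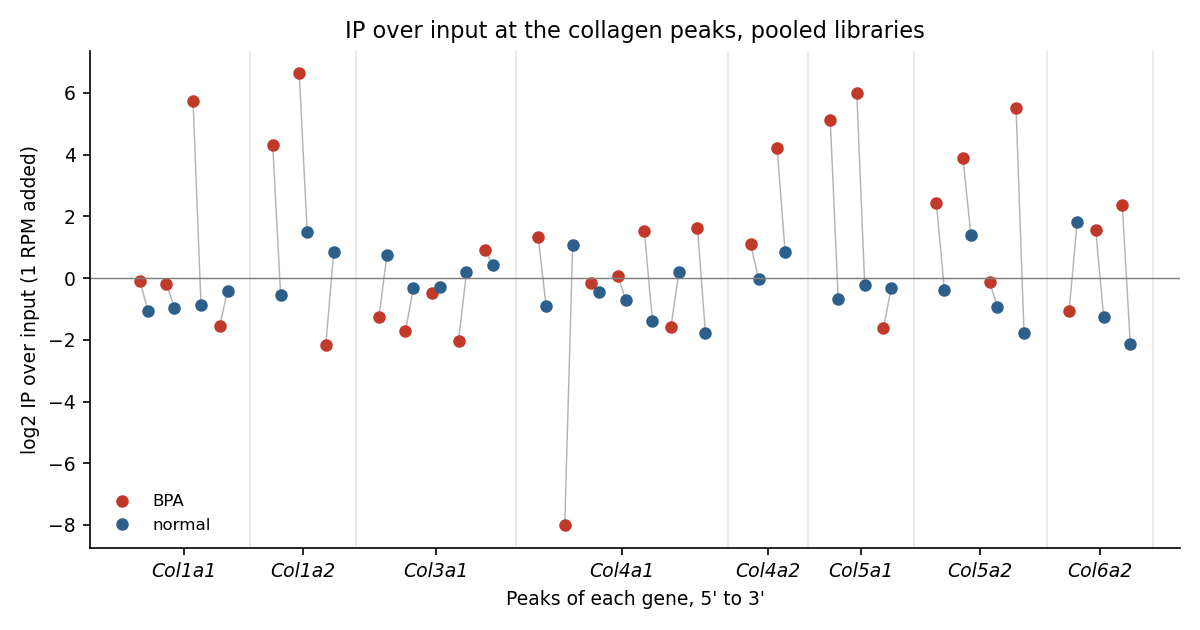
log2 IP over input (1 RPM added) at each collagen peak, with BPA (red) left of normal (blue) and grey lines joining the 2 values. IP is above input at 17 of 31 peaks in BPA cells and at 10 of 31 in normal cells, and the Col4a1 point near -8 has 1 IP read. IP and input are each relative to a scale made up mostly of reads in the listed peaks.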

How the data were processed

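The authors deposited unnormalized read counts for 12404 Ensembl gene IDs, of which 12271 were paired with a symbol. Per the submitters' processing notes, HISAT2 2.2.1, fastp 0.20.1, DESeq2 1.38.3 and featureCounts 2.0.1 were used, and the builds named, without roles, are GRCh38 and GRCm39. The count columns name no assay and were taken as the RNA-seq libraries. RPM per peak was also deposited, with the replicates of a condition pooled into 1 value, and low values were whole multiples of 1 read in 100% of peaks (tolerance 0.1 read), so reads were recovered. The authors also deposited a log2 fold change, p-value and false discovery rate per peak, and no source used here names their test or peak caller. Peak starts were shifted to 1-based coordinates, and 17 of 31 collagen peaks lay inside the GRCm38 span of their gene, so the build was read as GRCm39.

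The test was that of edgeR 4.0.16 (R 4.3.3, TMM, filterByExpr minimum count 10 and minimum total 15, robust quasi-likelihood F test, Benjamini-Hochberg at 0.05 over 8645 genes). CPM were TMM scaled, and log2 ratios of peaks used 1 RPM added, but not the linear ratios with intervals. DESeq2 1.42.0 was an alternative. A count test on recovered reads was not run, since each condition has 1 pooled value. Exact intervals leave out all error but counting, and PCR copies were not told apart by molecular identifiers. All 9 genes are named, with up to 4 genes of largest mean count in each of 6 pathway lists and any there with an unadjusted p under 0.05, and the 5 genes nearest in profile (0.5 CPM added). Marker lists are given by their sums, with some genes at 0 in a whole group and a few others chosen after their values were seen. The collagen genes and the lists were chosen with earlier results of these data known. Promoter windows came from RefSeq (GRCm38.p6).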

Additional observations from a re-analysis of the deposited data

How the results depend on the processing

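The count of collagens called was 0 under every alternative run. The count of genes called was 0 in the edgeR fit and 264 with DESeq2, and leaving out 1 library at a time gave 0 to 1 (1 without normal replicate 1). With no filter on low counts, with DESeq2 size factors and with edgeR's older quasi-likelihood method (chosen after seeing the data) it was 0. The labels do not say whether the replicate numbers pair the samples. Deviations of same-numbered libraries had a correlation of 0.0014 over 8645 genes, which cannot exclude pairing with 2 libraries per group. With the replicate block 0 genes were called. Of 90 log2 fold changes of the collagens under alternatives, 85 kept their direction and 77 were below 0. The 5 that reversed were Col1a1 at -0.19 with genes of a mean of at least 1000 reads alone, Col3a1 at 0.12 without normal replicate 2, Col4a2 at 0.19 without BPA replicate 2 and at 0.78 without normal replicate 1, and Col5a2 at 0.0019 without normal replicate 1. With 1 library left out, Col3a1 ranged from -0.80 to 0.12, Col4a2 from -0.98 to 0.78 and Col5a2 from -0.33 to 0.0019. The cause was not tested. The count of collagens with every BPA library below every normal library in CPM was 6, and was 3 with DESeq2 size factors, a scaling chosen after seeing the data. The share of reads on the collagens differed by -0.434 percentage points, BPA minus normal, and by -0.564 to -0.305 with 1 library left out. Of the peaks, 22 of 31 were positive, and 14 of 22 with at least 10 reads in each pooled column, where fewer peaks are counted. Read depth limits the peaks: 9 of 31 had under 10 reads in at least 1 column. The low column was the BPA input, save at the second Col4a1 peak, which had 1 IP read in BPA cells. Of the collagen peaks 71.0% had 10 or more reads in each column, against 42.0% of all peaks.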
